A study of Homo sapiens with 9 samples.

Results

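The response common to both of a pair of siRNA preparations against the same gene, ENAH, was measured in H1650 cells. It was followed in the 6 siRNA libraries of a series of 9, set against the 3 libraries of the control siRNA. A gene belonged to the shared response where each preparation on its own changed it against control in the same direction. By that rule 442 of 13273 genes tested were shared, 219 higher and 223 lower.

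H1650 is an established line of human non-small cell lung cancer, and every group is this 1 line on day 3 after transfection with RNAiMAX at 20 nM siRNA. The siMENA group received a siGENOME SMARTpool against ENAH that covers all forms of the protein, called hMENA(t) in the labels. In the siMENA11a group the cells were given 3 mixed siRNAs, each matching a stretch inside exon 11a of ENAH. The control group received the ON-TARGETplus Nontargeting Control Pool. The control pool thus comes from another product line than the siMENA pool, so the effect of the target and of the kind of siRNA cannot be told apart from these groups. Each group had 3 libraries (called 1, 2 and 3 here, as in the labels), which the series' design text calls biological replicates. Whether the 3 came from separate cultures is not said, so the p-values measure the spread between these libraries.

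ENAH encodes hMENA, a protein of the Ena/VASP family that binds growing actin filament ends and lets the filaments lengthen, and that acts in cell adhesion and movement. Exon 11a is an alternative exon used in epithelial cells, and the form that holds it is hMENA11a. Double-stranded RNA inside a cell, which siRNA duplexes resemble, can be bound by RNA sensors that act through the adaptor MAVS and through interferon regulatory factors. The interferons made in this way act through their receptors on STAT and IRF transcription factors, which bind the interferon-stimulated response element in the promoters of antiviral effector genes.

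The values are FPKM (fragments per length of transcript and number of mapped fragments), a level scaled to transcript length and library size. Changes are differences of log2(FPKM + 1) between group means, which understate the change of low genes. Whole numbers far above a gene's other values, 7.91% of the deposited values, were taken as having lost their decimal point and were divided by 1000, and these are called repaired values. The table gives no counts, so read depth is unknown. Of 8 markers listed for the epithelial label of the cells, 7 were checked. EPCAM lay between 135 and 167 FPKM and KRT18 between 906 and 1358 FPKM in the 9 libraries, and NKX2-1 was not analysed here. The summed level of the 7 epithelial markers was 4860 to 5174 FPKM in the controls, 4726 to 4923 with siMENA and 3981 to 4460 with siMENA11a. Of markers of other cell types, the 7 fibroblast genes summed to 5.91 to 10.8 FPKM in the controls, 7.03 to 12.6 with siMENA and 9.09 to 13.7 with siMENA11a, most of it FAP. The 4 leukocyte genes with values, of 10 listed, summed to 15.3 to 20.5, 14.5 to 17.9 and 15.8 to 22.0 FPKM. The 7 endothelial genes summed to 36.6 to 49.99, 38.0 to 44.4 and 34.6 to 40.1 FPKM, most of it EGFL7. Of these 3 lists 3 genes each passed the filter on low values, and none was called in either direction in both preparations.

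The first comparison asked how much of each preparation's effect the other one had too. Adjusted p under 0.05 with limma counted as a call. With siMENA 1369 genes (10.3% of those tested) were higher and 1094 (8.24%) lower than control, and with siMENA11a 1083 (8.16%) were higher and 1500 (11.3%) lower. Which direction had more calls with siMENA depended on the scaling, with 1050 higher and 1345 lower under median-ratio scaling and 1174 and 1270 under quantile normalization, and on single libraries, with 650 and 696 without siMENA 1, 762 and 793 without control 1 and 781 and 791 without siMENA 2. The 219 shared rises, 1.65% of all genes tested, made up 16% of the rises with siMENA and 20.2% of those with siMENA11a. The 223 shared falls, 1.68% of all genes tested, made up 20.4% and 14.9% of the falls. A further 271 genes (2.04%) were called in opposite directions, 158 of them higher with siMENA and 113 higher with siMENA11a. Both comparisons use the same 3 control libraries, so a deviation of the controls enters both, and no share of agreement is read from these counts.

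Most shared changes were small. Of the 219 rises, 29 reached a log2 change of at least 0.5 in both preparations and 2 reached at least 1. Of the 223 falls, 15 reached 0.5 and 2 reached 1. The smaller of the 2 changes had a median of 0.29 among the rises and 0.29 among the falls. The shared genes were expressed above the average gene, with a median level of 18.9 FPKM for the rises and 19.4 FPKM for the falls against 10.8 FPKM for all genes tested. All 6 siRNA libraries lay above all 3 controls for 218 of the 219 rises and below them for 222 of the 223 falls. Over all genes tested, all 6 lay above the controls for 5.4% and below them for 4.82%. The shared calls were made from these same values, so the lack of overlap follows largely from the rule and is no separate support.

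Set as 1 contrast, the mean of both preparations against control, 715 genes (5.39%) were called higher and 878 (6.61%) lower. These include all 442 shared genes, but 1122 of them were called with 1 preparation only. Where the 6 siRNA libraries were taken as 1 group, so that the difference between preparations counts as spread, 45 genes were higher and 41 lower. The preparations differed from each other in 4857 genes (36.6%), 1916 (14.4%) higher and 2941 (22.2%) lower with siMENA11a, against 2463 called between siMENA and control (18.6%) and 2583 between siMENA11a and control (19.5%). With median-ratio scaling the calls between preparations were 2307 higher and 2316 lower, and with quantile normalization 2283 and 2365, so the surplus of lower calls rested on the scaling. Of the shared genes, 40 rises and 72 falls also differed in size between the preparations. The number of shared calls depended on single libraries. Leaving out control 1, 2 or 3 gave 123, 140 or 97 rises and 130, 132 or 95 falls. Without siMENA 1 there were 126 rises and 141 falls, without siMENA 2 there were 126 rises, and without siMENA11a 1 there were 146 falls. Of the 442 genes, 70 rises (32%) and 67 falls (30%) were called whichever of the 9 libraries was left out. Without the 3 libraries numbered 2, the counts were 110 and 122.

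ENAH itself, the target of both, had the largest shared fall, ranked by the smaller of the changes with the 2 preparations. With siMENA11a alone ITFG3 fell further (-1.45 on the log2 scale, against -1.31 for ENAH). ENAH measured 26.1, 30.04 and 26.1 FPKM in the controls, 4.43, 5.79 and 5.57 with siMENA and 9.98, 11.02 and 10.3 with siMENA11a. No siRNA library came near a control library, and the siMENA libraries lay below the siMENA11a libraries. On the log2 scale ENAH changed by -2.18 (SE 0.09, adjusted p 6.41e-06) with siMENA and -1.31 (SE 0.09, adjusted p 6.29e-05) with siMENA11a, and it was higher with siMENA11a than with siMENA by 0.87 (adjusted p 0.000112). Permuting the 6 siRNA libraries with the 3 controls, an exact test with both sides counted gave p = 0.0238, the smallest value that 84 arrangements allow. The FPKM of ENAH are gene-level values and do not tell transcripts with exon 11a from those without. Exon 11a, the target of the siMENA11a mix, is 63 bases long and lies at chr1:225504991-225505053 of GRCh38 on the minus strand. In the GENCODE annotation it is an exon of 2 of the 9 ENAH transcripts. Its sequence is shown because it bounds where these siRNAs can match ENAH, with no part marked.

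exon 11a: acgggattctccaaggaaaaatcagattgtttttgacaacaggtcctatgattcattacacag

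Among the named genes, the largest shared rise by the same ranking was in PODXL2, a sialomucin of the cell surface. It measured 3.27, 3.695 and 3.72 FPKM in the controls, 9.73, 9.17 and 8.703 with siMENA and 7.98, 9.88 and 8.004 with siMENA11a. Every siRNA library was above every control, with changes of 1.16 (SE 0.09, adjusted p 5.39e-05) with siMENA and 1.07 (SE 0.09, adjusted p 8.83e-05) with siMENA11a. HDAC9, a class IIa histone deacetylase, measured 7.45, 6.68 and 6.69 FPKM in the controls, 12.8, 12.2 and 11.7 with siMENA and 12.6, 13.6 and 12.96 with siMENA11a. Its libraries kept within a narrow range in each group, and the changes were 0.74 and 0.82 (adjusted p 0.000108 and 6.91e-05). Both calls stood whichever library was left out.

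DDAH1, an enzyme that breaks down methylated arginines which inhibit nitric oxide synthase, and DEFB1, an antimicrobial beta-defensin of epithelia, rose as well. DDAH1 measured 7.17, 9.51 and 7.56 FPKM in the controls, 13.3, 18.5 and 12.9 with siMENA and 12.2, 20.1 and 11.6 with siMENA11a, with library 2 highest in each group. Its changes were 0.80 and 0.75 (adjusted p 0.0213 and 0.0269). DEFB1 measured 3.66, 2.35 and 4.997 FPKM in the controls, 9.92, 7.34 and 9.05 with siMENA and 5.84, 6.08 and 7.86 with siMENA11a, and its changes were 1.10 and 0.73 (adjusted p 0.00478 and 0.0260). For both genes the siRNA libraries were above all controls. DDAH1 lost its call without control 1, control 3 or siMENA 2 (adjusted p 0.0728 to 0.0831, and 0.000630 to 0.0831 over all alternatives). DEFB1 lost its call without control 1, control 2 or siMENA11a 3 (adjusted p 0.0600 to 0.0834, and 0.00482 to 0.0834 over all alternatives), and without all 3 libraries numbered 2.

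**Figure D1:**
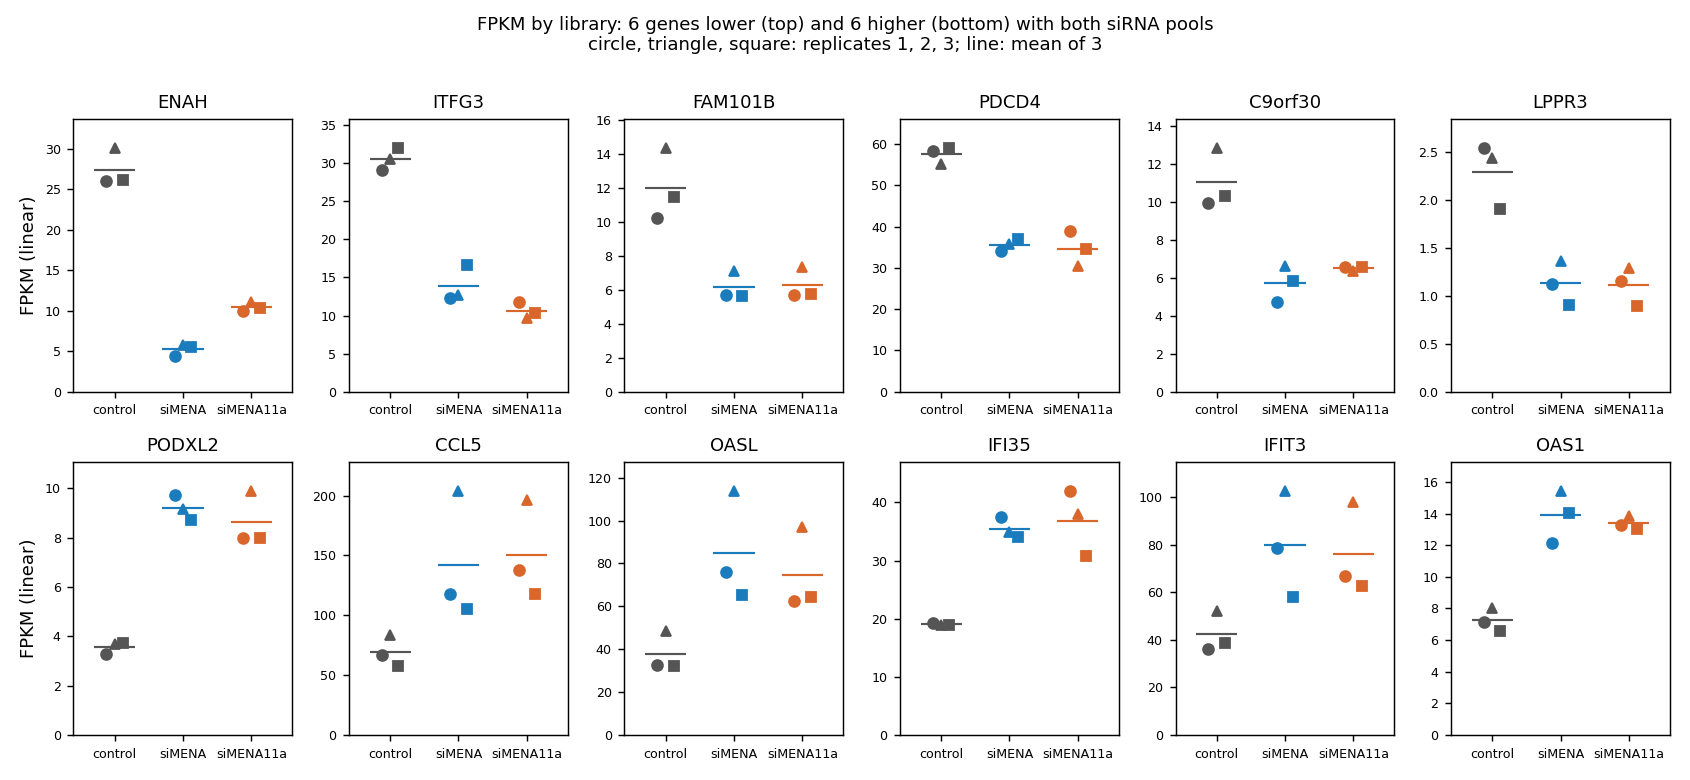
FPKM (linear axis from 0) of 12 genes in each of the 9 libraries, with 3 libraries per group (circle, triangle and square for libraries 1, 2 and 3) and a line at the group mean. The top row holds ENAH and the next 5 shared falls, the bottom row the 6 largest shared rises. In all 12 genes no siRNA library overlaps a control library, and in ENAH, FAM101B, CCL5, OASL, IFIT3 and OAS1 library 2 is the highest of its group in all 3 groups.

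The other 8 of the 12 largest rises belong to antiviral or inflammatory genes. Over 4 lists of interferon genes (ligands and receptors, RNA sensors and signal carriers, transcription factors, and induced effectors), 24 of 83 tested members (28.9%) rose with both preparations and 0 fell, against 1.65% and 1.68% of all genes tested. A further 2 members were called in opposite directions, IL10RB, a receptor chain for interferon lambda and interleukin-10, with changes of -0.27 and 0.53, and the GTPase GBP2 with -0.36 and 0.33. In the contrast of both preparations, 42 of the 83 were higher (5.39% of all genes tested) and 1 was lower (6.61%), MAVS, with changes of -0.49 and 0.05. All 6 siRNA libraries were above all controls in 35 members (5.4% of all genes tested) and below them in 0 (4.82%). Interferon genes had already been seen to rise in each preparation when these lists were drawn up, so the counts are a description. Of the 24 genes, 10 were called whichever library was left out.

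At the level of ligands and receptors, 8 members were expressed enough to be tested and 1 rose, IFNGR2, the signalling chain of the interferon gamma receptor. It measured 43.7, 43.99 and 39.9 FPKM in the controls, 47.9, 47.8 and 49.8 with siMENA and 50.01, 48.5 and 53.3 with siMENA11a. The siRNA libraries were above all controls but lay close to them, with changes of 0.19 and 0.25 (adjusted p 0.0461 and 0.0150). IFNGR2 lost its call without any 1 library other than siMENA11a 2 and siMENA11a 3 (adjusted p 0.0609 to 0.166, and 0.0384 to 0.166 over all alternatives), and with median-ratio scaling, without the mean-variance trend, without all 3 libraries numbered 2, with quantile normalization, with the replicate number as a block or in the fit without repaired genes.

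Among 11 RNA sensors and signal carriers, 3 rose with both preparations and 0 fell. IFIH1, which encodes MDA5, the sensor of long double-stranded RNA, measured 9.25, 11.9 and 9.52 FPKM in the controls, 17.98, 22.1 and 18.2 with siMENA and 15.9, 19.3 and 13.7 with siMENA11a. DDX58, which encodes RIG-I, the sensor of RNA ends, measured 19.8, 23.9 and 19.2 FPKM in the controls, 30.6, 38.9 and 29.1 with siMENA and 33.8, 41.4 and 33.1 with siMENA11a. In both genes every siRNA library was above every control. IFIH1 changed by 0.87 (SE 0.13, adjusted p 0.00215) with siMENA and 0.62 (SE 0.13, adjusted p 0.00985) with siMENA11a, and DDX58 by 0.62 (SE 0.12, adjusted p 0.00843) with siMENA and 0.75 (SE 0.12, adjusted p 0.00325) with siMENA11a. EIF2AK2, which encodes the kinase PKR that stops translation when it binds double-stranded RNA, rose less, by 0.20 and 0.39 (adjusted p 0.0219 and 0.00112), and more with siMENA11a than with siMENA. EIF2AK2 lost its call without control 1, control 2, siMENA 1 or siMENA 2 (adjusted p 0.0643 to 0.0718, and 0.0191 to 0.115 over all alternatives), and without all 3 libraries numbered 2. IFIH1 and DDX58 were called whichever library was left out.

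Of 8 transcription factors of the pathway, 3 rose with both preparations and 0 fell. IRF9 is the DNA-binding part of ISGF3, the factor that binds the interferon-stimulated response element. It measured 15.1, 14.5 and 15.7 FPKM in the controls, 21.3, 20.1 and 21.01 with siMENA and 31.7, 27.3 and 29.1 with siMENA11a. Its replicates lay close together and the 3 groups did not overlap, with siMENA between the controls and siMENA11a. IRF9 changed by 0.44 (SE 0.06, adjusted p 0.00175) with siMENA and 0.91 (SE 0.06, adjusted p 6.06e-05) with siMENA11a, and the difference between the preparations was 0.48 (adjusted p 0.000390). IRF1, a factor induced by interferons that also binds this element, rose by 0.35 and 0.26 (adjusted p 0.00946 and 0.0340). IRF1 lost its call without control 2, control 3, siMENA11a 1 or siMENA11a 3 (adjusted p 0.0509 to 0.114, and 0.00580 to 0.114 over all alternatives), and without all 3 libraries numbered 2.

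Of 56 tested interferon-induced effectors, 17 rose with both preparations, 0 fell and 1 was called in opposite directions. Over all genes tested the shares were 1.65%, 1.68% and 2.04%. The median change of the whole list was 0.33 with siMENA and 0.37 with siMENA11a, against 0.04 and -0.01 over all genes tested. IFI35, an interferon-induced protein, measured 19.2, 18.9 and 18.9 FPKM in the controls, 37.6, 34.9 and 34.01 with siMENA and 41.9, 37.9 and 30.8 with siMENA11a. The controls lay within a narrow range and every siRNA library was well above them, with changes of 0.87 (SE 0.10, adjusted p 0.000383) with siMENA and 0.91 (SE 0.10, adjusted p 0.000319) with siMENA11a. OAS1, which makes the messenger that activates RNase L, measured 7.12, 8.03 and 6.604 FPKM in the controls, 12.2, 15.4 and 14.1 with siMENA and 13.3, 13.9 and 13.1 with siMENA11a. Its changes were 0.85 and 0.81 (adjusted p 0.000312 and 0.000485). OAS1 and IFI35 were called whichever library was left out.

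OASL and the IFIT genes rose further in FPKM but with more spread. OASL, an oligoadenylate synthetase-like protein, measured 32.6, 48.5 and 32.1 FPKM in the controls, 76.1, 114 and 65.3 with siMENA and 62.4, 97.1 and 64.2 with siMENA11a. IFIT1, which binds foreign RNA and blocks its translation, measured 38.2, 46.7 and 34.7 FPKM in the controls, 74.6, 105 and 64.8 with siMENA and 57.7, 90.1 and 58.8 with siMENA11a. In both genes library 2 was the highest of each group, and control 2 stayed below every siRNA library. The changes were 1.14 and 0.96 for OASL (adjusted p 0.00937 and 0.0189) and 1.00 and 0.75 for IFIT1 (adjusted p 0.00920 and 0.0288). IFIT3, a partner of IFIT1, went from 42.2 ± 8.58 FPKM to 79.7 ± 22.2 and 75.9 ± 19.3 FPKM (SD, n = 3), by 0.88 and 0.82 on the log2 scale (adjusted p 0.0219 and 0.0287). IFIT2 went from 74.3 ± 12.5 FPKM to 128 ± 31.9 and 142 ± 45.4 FPKM, by 0.77 and 0.90 (adjusted p 0.0419 and 0.0221). ISG15, a ubiquitin-like protein attached to other proteins during the response, went from 92.5 ± 19.3 FPKM to 154 ± 28.3 and 171 ± 28.7 FPKM, by 0.73 and 0.89 (adjusted p 0.0149 and 0.00627). For none of these 5 genes did the preparations differ from each other past the threshold, with 95% intervals of the difference from -0.70 to 0.35 for OASL and from -0.22 to 0.53 for ISG15. OASL lost its call without control 1 or control 3 (adjusted p 0.0630 to 0.0700, and 8.86e-05 to 0.0700 over all alternatives). IFIT1 lost its call without control 1, control 3 or siMENA11a 2 (adjusted p 0.0684 to 0.0983, and 0.000337 to 0.0983 over all alternatives). IFIT3 lost its call without control 1, control 3, siMENA 1, siMENA 2, siMENA11a 1 or siMENA11a 2 (adjusted p 0.0512 to 0.0910, and 0.000547 to 0.0910 over all alternatives). IFIT2 lost its call without control 1, control 3, siMENA 1, siMENA 2 or siMENA11a 1 (adjusted p 0.0561 to 0.132, and 0.000729 to 0.132 over all alternatives), and without the filter on low values or without the mean-variance trend. ISG15 lost its call without control 1, control 3 or siMENA 2 (adjusted p 0.0519 to 0.0587, and 9.79e-05 to 0.0587 over all alternatives).

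The other 10 shared effectors had smaller changes with siMENA and siMENA11a. Among them were UBE2L6, the enzyme that passes ISG15 on (0.36 and 0.60), the ADP-ribosyltransferases PARP14 (0.45 and 0.58), PARP12 (0.27 and 0.37) and PARP10 (0.40 and 0.22), and NMI, a partner of IFI35 (0.54 and 0.53). ZC3HAV1, which marks viral RNA for decay, changed by 0.59 and 0.55 and the helicase ZNFX1 by 0.50 and 0.36. The rest were SAMD9 (0.29 and 0.63), TRIM21, an intracellular antibody receptor (0.53 and 0.26), and PLSCR1 (0.30 and 0.38). Library 2 was the highest of its group in all 3 groups for 26 of the 56 effectors (46.4%), against 13.5% of all genes tested and 13.7% of the shared rises. Without all 3 libraries numbered 2, 15 effectors were called. Leaving out a single library gave 9 without control 1, 6 without control 3, 10 without siMENA 1 and 9 without siMENA 2, and between 15 and 18 without any of the other 5 libraries. Among genes with no repaired value 7 were called, in a fit that did not test OAS1, OASL, ISG15, IFIT1, IFIT2 or IFIT3. With the replicate number as a block 25 were called.

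**Figure D2:**
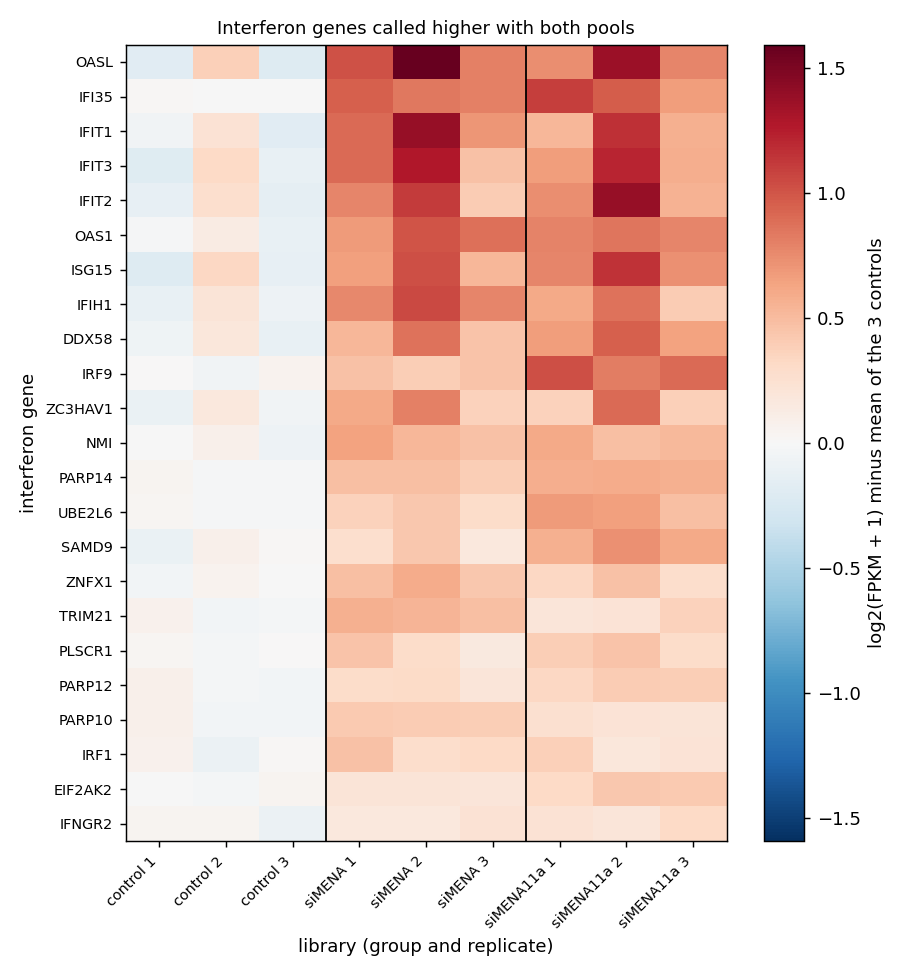
log2(FPKM + 1) minus the mean of the 3 controls (color, red for higher) for 23 of the 24 interferon genes called higher with both preparations (rows, by mean change) in the 9 libraries (columns, 3 per group between the black lines). OASL, the IFIT genes and ISG15 are darkest in siMENA 2 and siMENA11a 2, while IRF9 is even within a group and darker with siMENA11a than with siMENA.

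Promoters of the shared rises were searched for the core of the interferon-stimulated response element, GAAANNGAAA on either strand, where 2 matches may overlap. RefSeq promoter windows of GRCh38.p14, from 250 bases before to 50 bases after a gene's start, were matched by symbol to 10254 of the 13273 genes tested. The core was in 20 of 173 shared rises (11.6%), in 5 of 175 shared falls (2.86%) and in 376 of all 10254 genes (3.67%). It was in 35 of the 45 effectors with a window (77.8%), in 9 of the 13 that rose with both preparations (69.2%) and in 26 of the 32 that did not meet that rule (81.2%). Among shared rises outside the interferon lists, 9 of 154 held it (5.84%). OASL, IFIT2 and CCL5 were not matched.

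Promoters of named shared rises are shown on the sense strand as examples and not in proportion, 3 that hold the core and 1 that does not. Matches on either strand are in capitals. IFIT1 (chr10:89392373-89392672, plus strand) holds 2 separate matches. ISG15 (chr1:1013247-1013546, plus strand) holds 2 that overlap, and IFIH1 (chr2:162318635-162318934, minus strand) holds 3. IFI35 (chr17:43006534-43006833, plus strand) has no match in this window. Windows not shown of IFIT3 and EIF2AK2 also held the core. Those of PODXL2, OAS1, DDAH1, HDAC9, IFNGR2, DDX58, IRF9 and IRF1 held no match.

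IFIT1 promoter: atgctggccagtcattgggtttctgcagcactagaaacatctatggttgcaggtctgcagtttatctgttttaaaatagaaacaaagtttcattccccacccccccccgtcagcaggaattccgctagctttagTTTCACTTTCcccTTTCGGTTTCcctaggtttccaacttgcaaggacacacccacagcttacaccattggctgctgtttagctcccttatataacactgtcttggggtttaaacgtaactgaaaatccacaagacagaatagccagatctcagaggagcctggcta
ISG15 promoter: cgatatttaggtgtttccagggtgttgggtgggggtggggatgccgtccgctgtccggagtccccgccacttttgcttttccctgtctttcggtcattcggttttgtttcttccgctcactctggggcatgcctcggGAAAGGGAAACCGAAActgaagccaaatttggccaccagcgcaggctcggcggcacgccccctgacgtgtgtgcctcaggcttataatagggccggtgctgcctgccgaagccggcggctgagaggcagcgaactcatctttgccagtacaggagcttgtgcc
IFIH1 promoter: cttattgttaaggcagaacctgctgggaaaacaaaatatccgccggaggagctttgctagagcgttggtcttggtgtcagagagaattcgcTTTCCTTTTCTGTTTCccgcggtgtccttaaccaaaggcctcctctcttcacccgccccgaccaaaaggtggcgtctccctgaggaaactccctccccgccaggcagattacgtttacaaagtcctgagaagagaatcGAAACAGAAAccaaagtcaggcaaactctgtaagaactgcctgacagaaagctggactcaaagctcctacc
IFI35 promoter: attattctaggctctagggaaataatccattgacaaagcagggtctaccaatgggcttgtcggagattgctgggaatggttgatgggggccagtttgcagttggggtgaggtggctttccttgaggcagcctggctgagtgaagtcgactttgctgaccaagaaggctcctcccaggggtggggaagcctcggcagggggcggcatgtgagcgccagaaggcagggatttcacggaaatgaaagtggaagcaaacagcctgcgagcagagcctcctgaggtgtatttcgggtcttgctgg

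Genes of inflammation followed in part. Of 16 tested chemokines and cytokines, 2 rose with both preparations (1.65% of all genes tested) and 0 fell (1.68%). CCL5, a chemokine that draws T cells and is induced by both interferon regulatory factors and NF-kB, measured 66.7, 83.2 and 57.4 FPKM in the controls, 118, 204 and 105 with siMENA and 137, 197 and 117 with siMENA11a. Library 2 was again the highest in each group, and all siRNA libraries were above the controls, with changes of 0.99 (SE 0.25, adjusted p 0.0240) with siMENA and 1.09 (SE 0.25, adjusted p 0.0152) with siMENA11a. IL6, an inflammatory cytokine, measured 22.2, 25.7 and 29.9 FPKM in the controls, 38.2, 40.98 and 35.7 with siMENA and 47.7, 58.3 and 47.7 with siMENA11a. Its changes were 0.55 and 0.96 (adjusted p 0.00817 and 0.000576), larger with siMENA11a, and it was called whichever library was left out. CCL5 lost its call without control 1, control 3 or siMENA 2 (adjusted p 0.0590 to 0.0870, and 0.000213 to 0.0870 over all alternatives that tested it). Of the 9 values of CCL5, 6 were repaired.

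Among 15 subunits, inhibitors and regulators of canonical NF-kB, 2 rose and 1 fell with both preparations, where 1.65% of all genes tested rose and 1.68% fell. NFKB1, the p50 subunit, changed by 0.37 and 0.26 (adjusted p 0.00514 and 0.0208), and NFKBIA, the inhibitor that NF-kB itself induces, by 0.15 and 0.33 (adjusted p 0.0490 and 0.00171). CYLD, a deubiquitinase that restrains the pathway, fell by 0.20 and 0.26 (adjusted p 0.0395 and 0.0126). In the contrast of both preparations, 3 of the 15 were higher and 1 lower (5.39% and 6.61% of all genes tested). NFKB1 lost its call without control 1, control 2, control 3 or siMENA11a 2 (adjusted p 0.0532 to 0.0593, and 0.0127 to 0.131 over all alternatives), and without all 3 libraries numbered 2. NFKBIA lost its call without any 1 library other than siMENA11a 2 (adjusted p 0.0507 to 0.159, and 0.0337 to 0.159 over all alternatives), and with median-ratio scaling, without the mean-variance trend, without all 3 libraries numbered 2, with the replicate number as a block or in the fit without repaired genes. CYLD lost its call without any 1 library other than siMENA11a 2 and siMENA11a 3 (adjusted p 0.0580 to 0.106, and 0.0249 to 0.106 over all alternatives), and without all 3 libraries numbered 2. None of the 10 genes of the lymphotoxin receptor and non-canonical NF-kB was called in both preparations, and in the contrast of both 2 were higher and 1 was lower. LTBR, the receptor itself, measured 52.99, 53.8 and 51.3 FPKM in the controls, 49.1, 52.8 and 54.2 with siMENA and 41.1, 41.7 and 37.7 with siMENA11a, so its lower values were those with siMENA11a.

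MHC class I presentation, another set of genes that interferons induce, had 0 of 10 tested members called in both preparations. In the contrast of both, 4 were higher (5.39% of all genes tested) and 0 lower: NLRC5, the activator of class I genes (0.33), the proteasome subunit PSMB10 (0.31), the peptide transporter subunit TAP2 (0.29) and the trimming enzyme ERAP1 (0.21). B2M, the class I light chain, measured 1185, 1065 and 1056 FPKM in the controls, 1051, 1115 and 994 with siMENA and 1827, 1565 and 1949 with siMENA11a. It was above the controls in the siMENA11a libraries and overlapped them in the siMENA libraries.

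**Figure D3:**
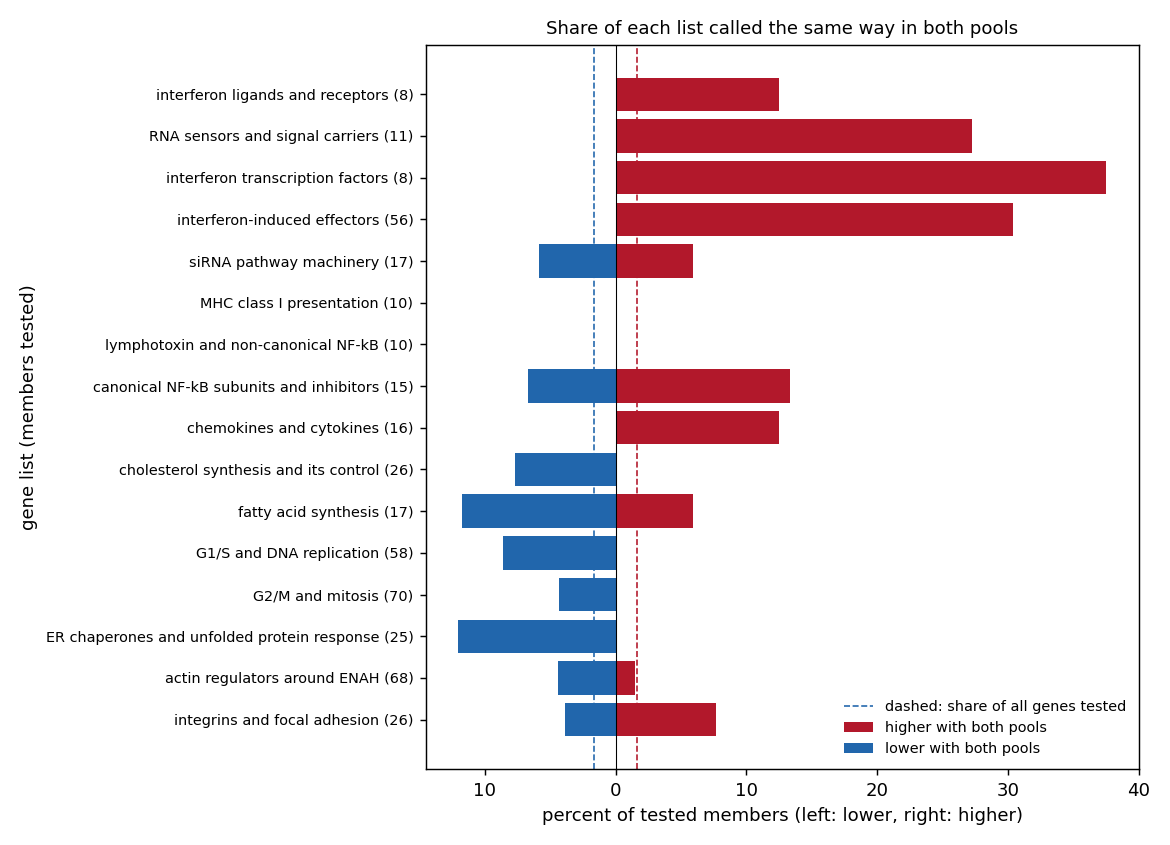
Share of the tested members of 16 gene lists (rows, with the number tested) called higher (red, to the right) or lower (blue, to the left) with both preparations. The dashed lines mark the share of all genes tested, 1.65% higher and 1.68% lower. The 4 interferon lists have bars to the right only, the cholesterol, cell cycle and ER chaperone lists to the left only, and MHC class I and non-canonical NF-kB have none.

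Of the genes that fell with both preparations, ITFG3 (now FAM234A), a membrane protein, came after ENAH. It measured 29.04, 30.6 and 31.96 FPKM in the controls, 12.4, 12.7 and 16.6 with siMENA and 11.8, 9.62 and 10.4 with siMENA11a. The siRNA libraries lay far below the controls, with changes of -1.09 (SE 0.11, adjusted p 0.000200) with siMENA and -1.45 (SE 0.11, adjusted p 6.48e-05) with siMENA11a. The fall was larger with siMENA11a, by -0.36 (adjusted p 0.0259). FAM101B, which encodes refilin B, a partner of the actin crosslinker filamin, measured 10.2, 14.3 and 11.5 FPKM in the controls, 5.71, 7.09 and 5.65 with siMENA and 5.68, 7.37 and 5.76 with siMENA11a. Its changes were alike in size, -0.86 and -0.84 (adjusted p 0.00256 and 0.00276), with a 95% interval of the difference from -0.27 to 0.32. PDCD4, an inhibitor of the translation initiation helicase eIF4A, measured 58.3, 55.1 and 58.97 FPKM in the controls, 34.2, 35.8 and 36.9 with siMENA and 39.02, 30.4 and 34.5 with siMENA11a. Every siRNA library was below every control, with changes of -0.68 (SE 0.08, adjusted p 0.000606) with siMENA and -0.72 (SE 0.08, adjusted p 0.000485) with siMENA11a.

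The next falls were of C9orf30 (now MSANTD3), LPPR3 (now PLPPR3), a membrane protein related to lipid phosphatases, and TMEM48, which encodes NDC1, the membrane anchor of the nuclear pore. C9orf30 went from 11.02 ± 1.57 FPKM to 5.73 ± 0.944 and 6.501 ± 0.139 FPKM (SD, n = 3), and LPPR3 from 2.29 ± 0.342 FPKM to 1.13 ± 0.232 and 1.11 ± 0.204 FPKM. TMEM48 went from 21.8 ± 1.52 FPKM to 13.8 ± 0.507 and 11.8 ± 0.895 FPKM, and its fall was larger with siMENA11a. On the log2 scale the changes were -0.84 and -0.67 for C9orf30, -0.63 and -0.64 for LPPR3 and -0.62 and -0.84 for TMEM48. ARHGAP11A, a GTPase-activating protein for RhoA, fell by 0.77 and 0.60. Its value is uncertain because ARHGAP11B is a near-identical partial copy. DOK5, an adapter of receptor tyrosine kinases, fell by 0.54 and 0.55, and C9orf80 (now INIP), a subunit of a complex that binds single-stranded DNA in repair, fell by 0.88 and 0.52. CMTM4, a membrane protein of the CMTM family, fell by 0.73 and 0.52, and CALU, which encodes the calcium-binding protein calumenin of the secretory pathway, fell by 0.76 and 0.51. CALU measured 97.5, 113 and 102 FPKM in the controls, 60.7, 63.7 and 58.6 with siMENA and 72.97, 69.8 and 74.8 with siMENA11a, with all siMENA libraries below all siMENA11a libraries. Of the 12 largest falls only CMTM4 lost its call in any fit with 1 library left out. CMTM4 lost its call without control 1 or control 3 (adjusted p 0.0557 to 0.0579, and 0.00345 to 0.0579 over all alternatives).

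**Figure D4:**
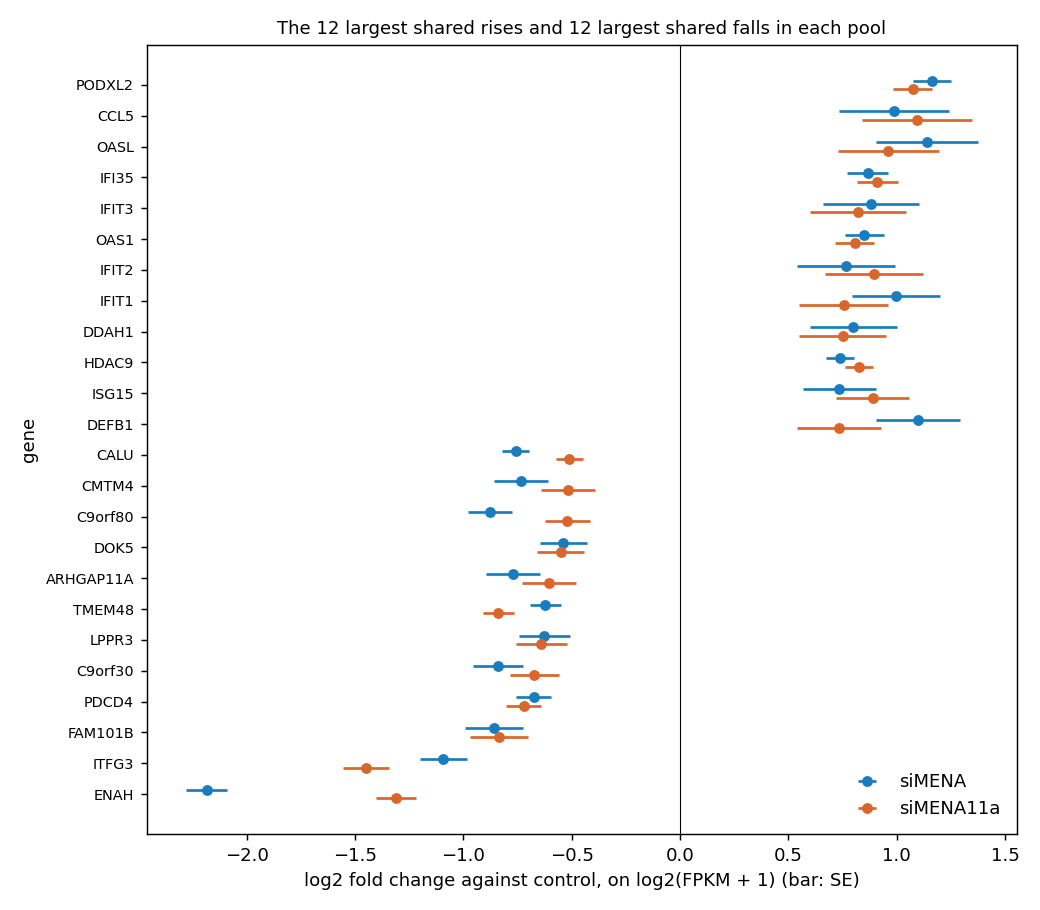
log2 fold change against control, on log2(FPKM + 1), with siMENA (blue) and siMENA11a (orange) for the 12 largest shared rises and the 12 largest shared falls (rows). Bars are standard errors from limma, with 3 libraries per group and the same controls for both. ENAH, ITFG3, TMEM48, C9orf80 and CALU have bars that lie apart between the preparations, whereas those of the other genes overlap.

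Lipid genes fell in part with both preparations. Of 26 tested genes of cholesterol synthesis and its control, 2 fell and 0 rose, where 1.68% and 1.65% of all genes tested did. INSIG1, which holds the sterol sensor in the endoplasmic reticulum and is itself a target of SREBP, measured 40.3, 36.3 and 37.4 FPKM in the controls, 27.6, 26.6 and 30.2 with siMENA and 22.6, 20.00 and 23.4 with siMENA11a. Its siRNA libraries were below all controls, with siMENA11a lowest, and the changes were -0.42 and -0.76 (adjusted p 0.00424 and 0.000185). The count was 4 without siMENA11a 2 or with the replicate number as a block, 1 without control 3 or siMENA 1, and 0 among genes with no repaired value. The shared falls of the list have repaired values, so that last fit did not test them. In the contrast of both preparations 9 of the 26 were lower (6.61% of all genes tested) and 0 higher, but the list's median was 0.09 with siMENA and -0.43 with siMENA11a, so the direction of the list was not the same in the 2.

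Of 17 tested genes of fatty acid synthesis, 2 fell, 1 rose and 1 was called in opposite directions. Over all genes tested the shares were 1.68%, 1.65% and 2.04%. SCD, the desaturase that makes oleate, measured 501, 399.6 and 499 FPKM in the controls, 342, 287 and 389 with siMENA and 303, 232 and 307 with siMENA11a, and library 2 was the lowest of each group. Its changes were -0.46 and -0.73 (adjusted p 0.0489 and 0.00696). The elongase ELOVL7 fell by 0.63 and 0.46 (adjusted p 0.0143 and 0.0483). ACSL4, which activates arachidonic acid, rose by 0.50 and 0.40 (adjusted p 0.000286 and 0.00106), from 29.4, 32.3 and 29.6 FPKM in the controls to between 39.8 and 44.6 FPKM in the 6 siRNA libraries, and was called whichever library was left out. SCD lost its call without control 1, control 3, siMENA 1, siMENA 2, siMENA11a 1 or siMENA11a 3 (adjusted p 0.0506 to 0.154, and 0.00154 to 0.154 over all alternatives), and without the filter on low values, without the mean-variance trend or with quantile normalization. ELOVL7 lost its call without any 1 library other than siMENA11a 3 (adjusted p 0.0514 to 0.152, and 0.00268 to 0.152 over all alternatives), and with median-ratio scaling, without the filter on low values, without the mean-variance trend or with quantile normalization.

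The cell cycle lists had shared falls and no shared rise, but most of their falls were called with siMENA11a only. In the list of G1/S and DNA replication, 5 of 58 tested members fell (1.68% of all genes tested), 0 rose and 2 (UNG and DSCC1) were called in opposite directions. MCM3, a part of the replicative helicase, measured 16.6, 16.9 and 15.7 FPKM in the controls, 12.1, 13.3 and 12.3 with siMENA and 10.95, 13.2 and 11.6 with siMENA11a. Its siRNA libraries were below all controls, with changes of -0.36 and -0.43 (adjusted p 0.00873 and 0.00376). GINS1, a helicase cofactor, fell by 0.37 and 0.52 (adjusted p 0.0161 and 0.00335), and DTL, which directs the degradation of the licensing factor CDT1, fell by 0.35 and 0.27 (adjusted p 0.0124 and 0.0335). Another was E2F1, a factor that drives genes of this list, which fell by 0.20 and 0.33 (adjusted p 0.0351 and 0.00370). With siMENA11a 33 of the 58 were lower (11.3% of all genes tested) and 0 higher (8.16%). With siMENA 6 were lower (8.24%) and 5 higher (10.3%). The list's median was 0.02 with siMENA and -0.32 with siMENA11a, so its direction was not the same in the 2. Its count of shared falls was 2 without control 2, 3 without control 1, siMENA 1 or siMENA11a 1, and 9 without siMENA11a 2 or with the replicate number as a block. Among genes with no repaired value it was 1, in a fit that did not test MCM3 or DTL. GINS1 lost its call without control 2 or siMENA 1 (adjusted p 0.0524 to 0.0608, and 0.00407 to 0.0608 over all alternatives). DTL lost its call without control 1, control 2, control 3, siMENA11a 1 or siMENA11a 3 (adjusted p 0.0642 to 0.107, and 0.0157 to 0.107 over all alternatives), and without all 3 libraries numbered 2.

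In the list of G2/M and mitosis, 3 of 70 tested members fell with both preparations (1.68% of all genes tested) and 0 rose. TOP2A, the topoisomerase of dividing cells, measured 81.6, 99.7 and 92.3 FPKM in the controls, 53.02, 58.2 and 54.2 with siMENA and 60.7, 73.7 and 63.5 with siMENA11a. Every siRNA library was below every control, and the fall was larger with siMENA, with changes of -0.71 (SE 0.09, adjusted p 0.000790) with siMENA and -0.46 (SE 0.09, adjusted p 0.00662) with siMENA11a. NEK2, a kinase of the centrosome, measured 25.9, 31.9 and 27.7 FPKM in the controls, 20.1, 22.4 and 17.99 with siMENA and 19.05, 22.97 and 18.1 with siMENA11a, a change of -0.48 and -0.49 (adjusted p 0.0141 and 0.0127). CDCA3, a trigger of mitotic entry, fell by 0.31 and 0.78 (adjusted p 0.0182 and 0.000197). In the contrast of both preparations 17 of the 70 were lower (6.61% of all genes tested) and 0 higher, with a median of -0.09 with siMENA and -0.44 with siMENA11a. Against control, 43 were lower with siMENA11a (11.3% of all genes tested) and 5 with siMENA (8.24%). Most falls of the list were thus called with siMENA11a and not with siMENA. Library 2 was the highest of its group in all 3 groups for 61 of the 70 genes (87.1%), against 13.5% of all genes tested. The count of shared falls was 15 with the replicate number as a block, 10 without siMENA11a 2, 6 without all 3 libraries numbered 2, 6 with median-ratio scaling, 5 with quantile normalization and 0 among genes with no repaired value. That last fit did not test TOP2A, NEK2 or CDCA3, which have repaired values. CDCA3 lost its call without control 2, control 3, siMENA 1 or siMENA 3 (adjusted p 0.0530 to 0.0713, and 0.00705 to 0.0713 over all alternatives).

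Promoters of the cell cycle lists were searched for the E2F word TTTGGCGC on either strand. It was in 5 of 175 shared falls (2.86%), 0 of 173 shared rises and 143 of all 10254 genes (1.39%). In the G1/S list 10 of 46 genes with a window held it (21.7%), and of the shared falls of that list 3 of 4. The word TTTGAA of the cell cycle homology region was in 24 of 175 shared falls (13.7%), as in 13.7% of all genes, and in 40 of 59 genes of the G2/M list (67.8%). GINS1 (chr20:25407423-25407722 of GRCh38.p14, plus strand) is shown as a shared fall with the E2F word, in capitals as it stands on the sense strand.

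GINS1 promoter: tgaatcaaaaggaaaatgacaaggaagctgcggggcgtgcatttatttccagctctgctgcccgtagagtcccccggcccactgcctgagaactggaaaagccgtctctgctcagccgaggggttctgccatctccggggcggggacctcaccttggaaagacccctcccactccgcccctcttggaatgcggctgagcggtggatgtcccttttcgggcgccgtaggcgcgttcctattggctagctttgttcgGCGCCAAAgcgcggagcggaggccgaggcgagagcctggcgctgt

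Chaperones of the endoplasmic reticulum and genes of the unfolded protein response had 3 of 25 tested members lower with both preparations (1.68% of all genes tested), 0 higher and 1 in opposite directions. HSP90B1, the HSP90 of this compartment, whose 9 values were all repaired with none to compare them with, measured 338, 311 and 334 FPKM in the controls, 256, 239.7 and 253 with siMENA and 249, 226 and 238 with siMENA11a. Its changes were -0.39 and -0.46 (adjusted p 0.00286 and 0.00116), and all 6 siRNA libraries lay below the controls. DNAJB11, a cofactor of the chaperone BiP, measured 51.1, 51.03 and 51.8 FPKM in the controls, 43.6, 41.2 and 41.03 with siMENA and 44.9, 40.3 and 39.99 with siMENA11a, a change of -0.29 and -0.29 (adjusted p 0.00747 and 0.00633). PDIA6, a disulfide isomerase, fell by 0.25 and 0.23 (adjusted p 0.0309 and 0.0421). In the contrast of both, 11 members were lower (6.61% of all genes tested) and 1 was higher (5.39%), XBP1, a transcription factor of this response (0.24, adjusted p 0.0282). PDIA6 lost its call without any 1 library other than control 2 and siMENA11a 3 (adjusted p 0.0657 to 0.142, and 0.0147 to 0.142 over all alternatives), and with median-ratio scaling, without the mean-variance trend, without all 3 libraries numbered 2 or with quantile normalization. DNAJB11 lost its call without all 3 libraries numbered 2 (adjusted p 0.00573 to 0.0525 over all alternatives).

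**Figure D5:**
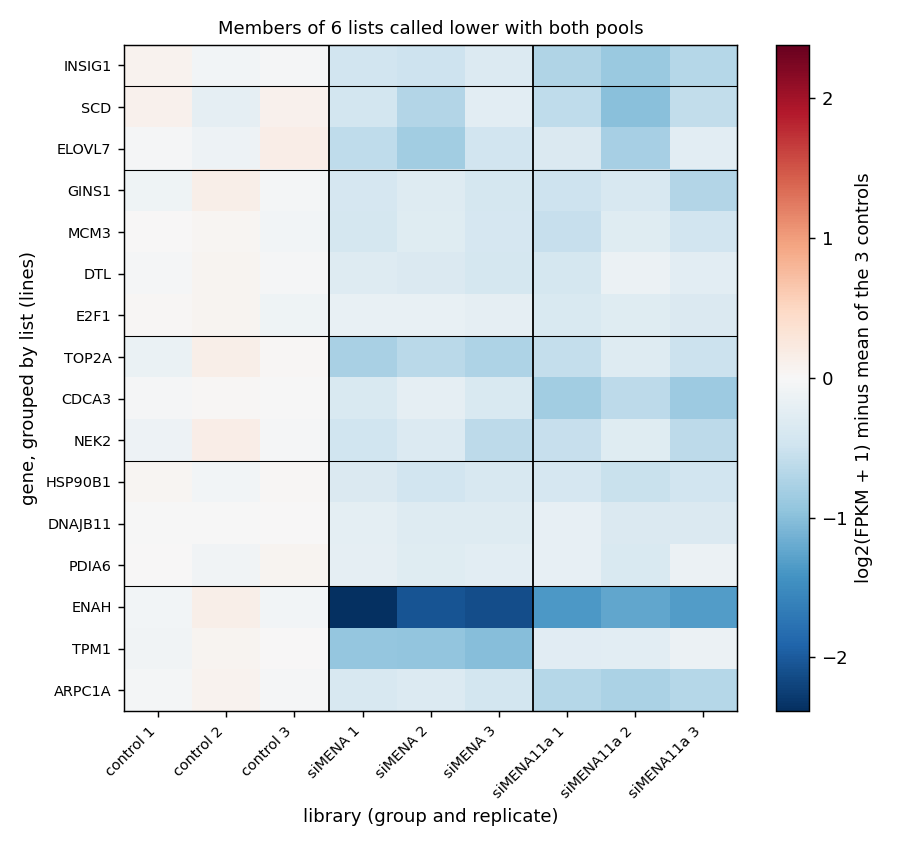
log2(FPKM + 1) minus the mean of the 3 controls (color, blue for lower) for 16 of the 18 members of 6 lists called lower with both preparations (rows, grouped by thin lines as cholesterol, fatty acid, G1/S, G2/M, ER chaperones and actin regulators) in the 9 libraries (columns). ENAH is the darkest row, TPM1 is darker with siMENA, and CDCA3, INSIG1 and ARPC1A are darker with siMENA11a.

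Around ENAH, 68 actin regulators were tested, of which 3 fell with both preparations (1.68% of all genes tested), 1 rose (1.65%) and 2 were called in opposite directions. ENAH itself, the target, is counted among the 68 and among the 3 falls. ENAH has 2 family members. VASP measured 86.02, 89.4 and 85.4 FPKM in the controls, 81.4, 82.4 and 89.7 with siMENA and 84.3, 71.9 and 69.4 with siMENA11a, and EVL 3.55, 3.87 and 3.78 FPKM in the controls, 5.03, 3.95 and 5.09 with siMENA and 2.66, 2.58 and 3.399 with siMENA11a. In neither was a change called with either preparation. VASP overlapped the controls with siMENA and lay below them with siMENA11a, while EVL lay above them with siMENA and below them with siMENA11a. ARPC1A, a subunit of the Arp2/3 complex that branches actin, measured 107, 118 and 109 FPKM in the controls, 85.2, 87.8 and 82.2 with siMENA and 68.5, 65.5 and 69.00 with siMENA11a, with changes of -0.38 (SE 0.05, adjusted p 0.00162) with siMENA and -0.71 (SE 0.05, adjusted p 6.77e-05) with siMENA11a. The fall was larger with siMENA11a and was called whichever library was left out. TPM1, a tropomyosin that coats actin filaments, measured 139.6, 155 and 147 FPKM in the controls, 76.8, 76.2 and 72.1 with siMENA and 122, 123 and 133 with siMENA11a, so that its fall was far larger with siMENA. FMNL2, a formin, rose by 0.27 and 0.28 (adjusted p 0.0134 and 0.0111). TPM1 lost its call without control 2, control 3, siMENA11a 1 or siMENA11a 2 (adjusted p 0.0578 to 0.0922, and 0.0203 to 0.171 over all alternatives), and without all 3 libraries numbered 2. FMNL2 lost its call without control 1 or control 3 (adjusted p 0.0513 to 0.0517, and 0.0111 to 0.0517 over all alternatives).

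Of 26 tested integrins and focal adhesion genes, 2 rose, 1 fell and 2 were called in opposite directions, against 1.65%, 1.68% and 2.04% of all genes tested. ITGA2 and ITGA1, the collagen-binding alpha subunits, rose. ITGA2 measured 28.6, 32.2 and 27.8 FPKM in the controls, 46.4, 52.6 and 45.4 with siMENA and 42.6, 52.05 and 44.4 with siMENA11a. ITGA1 measured 16.05, 19.6 and 16.4 FPKM in the controls, 24.6, 26.5 and 23.04 with siMENA and 23.01, 23.6 and 24.8 with siMENA11a. In both genes the siRNA libraries were above all controls, with changes of 0.69 and 0.63 for ITGA2 (adjusted p 0.000949 and 0.00144) and 0.49 and 0.44 for ITGA1 (adjusted p 0.00350 and 0.00559). ITGA6, the laminin-binding alpha subunit, measured 254, 249 and 263 FPKM in the controls, 212, 206 and 213 with siMENA and 206, 198 and 213 with siMENA11a and fell by 0.28 and 0.31 (adjusted p 0.00682 and 0.00378). The 3 calls stood whichever library was left out. ITGB1, the beta subunit that pairs with ITGA1 and ITGA2, measured 393, 445 and 399.6 FPKM in the controls, 172, 197 and 189.7 with siMENA and 344, 387 and 371 with siMENA11a, so it was lower than control in all 6 libraries but called only with siMENA.

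Genes of the siRNA pathway itself, 17 tested, had 1 shared rise, 1 shared fall and 1 opposite call. The shares over all genes tested were 1.65%, 1.68% and 2.04%. TNRC6B, a scaffold of silencing, changed by 0.34 and 0.20 (adjusted p 0.00360 and 0.0362), and TSN, which encodes translin, a part of the nuclease that helps to load the guide strand, fell by 0.40 and 0.19 (adjusted p 0.000517 and 0.0165). TNRC6B lost its call without any 1 library other than siMENA 3 (adjusted p 0.0540 to 0.109, and 0.0293 to 0.122 over all alternatives), and without all 3 libraries numbered 2. TSN lost its call without control 2 or control 3 (adjusted p 0.0520 to 0.0564, and 0.0130 to 0.111 over all alternatives), and without all 3 libraries numbered 2. Of 19 further lists with 562 tested genes, 12 genes rose and 6 fell with both preparations, 3.20% in all against 3.33% of all genes tested.

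Of the 442 shared genes, 25.3% differed in size between the preparations, against 36.6% of all genes tested. The rule for shared genes passes over genes in which the preparations went apart, so no agreement is read from the lower share. Apart from ENAH, the shared genes with the largest differences between the preparations were TPM1, ABCB10, SGMS1 and CCDC74A, all falls. ABCB10, a transporter of the mitochondrial inner membrane, measured 8.29, 8.39 and 8.02 FPKM in the controls, 3.63, 3.71 and 3.702 with siMENA and 7.27, 6.32 and 6.91 with siMENA11a. SGMS1, which makes sphingomyelin, measured 5.72, 6.28 and 5.900 FPKM in the controls, 2.47, 2.75 and 2.72 with siMENA and 4.94, 4.75 and 4.78 with siMENA11a. In TPM1, ABCB10 and SGMS1 the siMENA11a libraries lay just below the controls and the siMENA libraries far below. CCDC74A, whose value is uncertain because CCDC74B is a near-identical copy, measured 4.65, 4.66 and 4.85 FPKM in the controls, 3.89, 3.76 and 3.51 with siMENA and 1.86, 2.07 and 1.95 with siMENA11a, the reverse order. The difference of siMENA11a from siMENA was 0.74 for TPM1, 0.74 for ABCB10, 0.68 for SGMS1 and -0.67 for CCDC74A. ABCB10 lost its call without control 1, control 2, control 3, siMENA11a 2 or siMENA11a 3 (adjusted p 0.0583 to 0.0879, and 0.0240 to 0.188 over all alternatives), and without all 3 libraries numbered 2. SGMS1 lost its call without control 2, control 3, siMENA11a 1, siMENA11a 2 or siMENA11a 3 (adjusted p 0.0532 to 0.0854, and 0.0162 to 0.149 over all alternatives), and without all 3 libraries numbered 2. CCDC74A lost its call without control 1, control 2, control 3, siMENA 2 or siMENA 3 (adjusted p 0.0503 to 0.0806, and 0.0119 to 0.0806 over all alternatives), and without all 3 libraries numbered 2. Over all shared genes that differed between preparations, 29 rises were larger with siMENA11a and 11 with siMENA, and 25 falls were larger with siMENA11a and 47 with siMENA.

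Where the preparations went apart, S100A2, the histone genes HIST1H2AA and HIST3H2BB and the collagen gene COL5A2 had the largest opposite calls. S100A2, a calcium-binding protein of epithelia, measured 12.3, 28.1 and 15.3 FPKM in the controls, 41.4, 54.6 and 26.8 with siMENA and 6.57, 10.9 and 7.69 with siMENA11a. COL5A2 measured 2.25, 2.43 and 2.97 FPKM in the controls, 6.97, 4.83 and 5.99 with siMENA and 1.602, 0.941 and 1.57 with siMENA11a. Both were higher than control with siMENA and lower with siMENA11a. HIST1H2AA changed by 1.07 and -0.75 and HIST3H2BB by 0.73 and -0.92, values that are uncertain because histone genes are near-identical copies. S100A2 lost its call without any 1 library other than siMENA 3 and siMENA11a 2 (adjusted p 0.0954 to 0.143, and 0.00336 to 0.143 over all alternatives), and without the filter on low values, without the mean-variance trend or with quantile normalization. COL5A2 lost its call without control 3 (adjusted p 0.0774, and 0.00662 to 0.0774 over all alternatives). HIST1H2AA lost its call without siMENA11a 3 (adjusted p 0.0542, and 0.00635 to 0.0694 over all alternatives), and without all 3 libraries numbered 2. HIST3H2BB lost its call without control 1, siMENA 1 or siMENA 2 (adjusted p 0.0580 to 0.0733, and 0.0128 to 0.0733 over all alternatives).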

How the data were processed

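RNA of 9 H1650 libraries (3 control, 3 siMENA, 3 siMENA11a) was sequenced on a NextSeq 500 as pairs of 75 bases after Ribo-Zero Gold depletion of 500 ng and stranded library preparation, per the labels' protocols. The authors deposited FPKM values for 16630 genes. The submitters' processing notes name build hg19, while aligner, counter and annotation were not given in the sources used here. Of the deposited values 11543 were whole numbers. All but 19 of these, 7.91% of all values and at least 198 times above their gene's other values where it had any, were taken to have lost the decimal point and were divided by 1000. This touched 4868 genes, 237 of which had whole numbers only, and 35 of the 65 named by the rule below. Of 9 values, 8 were repaired in SCD, PDIA6 and ITGA6, 6 in CCL5, ISG15 and TPM1, and 5 in IFIT2.

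Genes with a missing value (1286) or a mean under 0.5 FPKM were left out. The other 13273 were compared as log2(FPKM + 1) with limma 3.58.1 in R 4.3.3, in one fit with a mean per group, a mean-variance trend and 6 residual degrees of freedom. P-values were adjusted over all genes tested (Benjamini-Hochberg). A gene is shared where both preparations pass adjusted p under 0.05 with the same sign. The script was tested on simulated data.

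The rule, the members and 38 gene lists were chosen with earlier results of these data known. Named are the 12 largest shared rises and falls by the smaller change, with a mean of at least 1 FPKM and no overlap of libraries (small RNA genes passed over), up to 4 shared members of each list described, up to 5 shared genes that differ most between preparations and 4 opposite genes. Of the genes so named, 3 are not reported here. The choice of 19 lists to describe, E2F1, MAVS, the other 10 shared effectors and genes named without a shared call came after their values were seen. Alternatives were other scalings, pseudocounts, filters and call rules, no trend, no repaired genes, the replicate number as a block, 6 siRNA libraries as 1 group, each library left out and, added after seeing the data, all libraries numbered 2 left out. For named genes the adjusted p quoted for an alternative is the larger of the 2 preparations'. A range over all alternatives covers those that tested the gene. The fit without repaired genes did not test genes with a repaired value.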

Additional observations from a re-analysis of the deposited data

Results flagged for a closer look

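The genes below were picked out because the effect of siMENA11a and that of siMENA differed from each other by limma's test of the difference itself, at adjusted p under 0.05. Values are siMENA11a minus siMENA on the log2(FPKM + 1) scale, with 3 libraries per group. This comparison called 36.6% of all genes tested.

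Among shared falls, a positive value means a smaller fall with siMENA11a. ENAH had 0.87, TPM1 0.74, ABCB10 0.74 and SGMS1 0.68. C9orf80 followed with 0.36, TOP2A with 0.25, CALU with 0.25 and TSN with 0.20. A larger fall with siMENA11a was seen in CCDC74A (-0.67), CDCA3 (-0.47), ITFG3 (-0.36), INSIG1 (-0.34), ARPC1A (-0.33) and TMEM48 (-0.22).

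Among shared rises, those of IRF9 (0.48), IL6 (0.41), SAMD9 (0.34), UBE2L6 (0.24), EIF2AK2 (0.18) and NFKBIA (0.17) were larger with siMENA11a, and those of TRIM21 (-0.27) and PARP10 (-0.18) were larger with siMENA. None of OASL, IFIT1, IFIT2, IFIT3 and ISG15 differed between the preparations past the threshold. The opposite genes differed most, with -2.13 for S100A2, -1.82 for HIST1H2AA, -1.64 for HIST3H2BB and -1.55 for COL5A2.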

How the results depend on the processing

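The change of no gene named by the rule reversed in the alternatives run. With siMENA the surplus of higher calls turned under both other scalings and without siMENA 1, siMENA 2, control 1 or all libraries numbered 2 (803 higher, 811 lower). With the 6 siRNA libraries as 1 group, 45 genes were higher and 41 lower. Without the libraries numbered 2, 110 rises, 122 falls and 104 opposite calls were shared between preparations, of which 93 rises and 86 falls were among the original ones. The contrast of both then called 320 higher and 449 lower, and siMENA11a 708 higher and 933 lower. Without genes with a repaired value (8461 tested) there were 116 rises, 115 falls and 116 opposite calls, 370 higher and 406 lower in the contrast of both, 730 and 563 with siMENA, 605 and 757 with siMENA11a, and 1078 and 1638 between preparations, where fewer genes were tested. The call rule of the joint contrast with no overlap of libraries gave 463 rises and 469 falls, and adjusted p under 0.01 gave 56 and 59.

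With the replicate number as a block, 344 rises, 350 falls and 432 opposite calls were made, and 216 and 222 of the original rises and falls were among them. Deviations of same-numbered libraries correlated at 0.124, 0.378 and 0.196 between control and siMENA and at 0.206, 0.425 and -0.03 between control and siMENA11a. Between siMENA and siMENA11a they correlated at 0.0863, 0.309 and 0.0203. The libraries numbered 2 thus went together in all groups, and they correlated negatively (-0.42 to -0.07) with libraries of other numbers in other groups. For numbers 1 and 3 the values were mixed, and not every library correlated best with its own number. The main fit did not use the numbers as pairs, and whether they mark a shared batch was not tested.

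Leaving out 1 library gave 97 to 203 rises, 95 to 227 falls and 90 to 306 opposite calls. The contrast of both gave 224 to 694 higher and 354 to 918 lower, siMENA 650 to 1627 and 696 to 1275, siMENA11a 593 to 1040 and 900 to 1443, and siMENA11a against siMENA 1452 to 1894 and 2174 to 2959. Lowest counts for the shared calls came without control 3. The log2 change of ENAH stayed between -1.78 and -1.68 in these fits. Read depth is unknown, so precision rests on 3 libraries a group.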

Other observations

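Of the genes measured, 7 had values in all 3 controls and none in any of the 6 siRNA libraries, with a highest control mean of 0.115 FPKM, below the filter used for testing. No test was made of them.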
